A study of Homo sapiens with 8 samples.

Results

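Translation initiation factors are the proteins that bring the initiator tRNA, the small ribosomal subunit and the capped mRNA together and set the ribosome on a start codon. Their genes were taken from the RNA sequencing table by symbol: all rows that begin with EIF1 to EIF6, leaving out the Argonaute genes once named EIF2C1 to EIF2C4, the kinases EIF2AK1 to EIF2AK4, EIF3I, and antisense and pseudogene rows. This gave 46 genes of 18892 in the table. Of these, 44 passed a filter of at least 1 RPM (reads scaled to a library total set by the authors) in at least 2 of 4 libraries, and the other 2, EIF4E1B and EIF4EBP3, were too low to be tested. EIF3C, EIF3CL, EIF4A1 and EIF1AY had no row and were not analysed here.

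The cells were C4-2, an established human prostate cancer line that descends from LNCaP and grows without added androgen. PolyA RNA was sequenced from 2 libraries of cells with a control hairpin (shCTRL) and 2 libraries made after knockdown of CDCA8 by a hairpin (shCDCA8); CDCA8 encodes a subunit of the chromosomal passenger complex of mitosis. All cells were kept in the same serum-containing medium and no drug was given, per the labels' protocols. Whether the knockdown cells were a pool or a clone, and whether replicates came from separate cultures, is not stated in the labels, so p-values measure only the spread between these libraries, which may be technical. The sample titles give the label shCDCA8 without a hairpin number, so they do not say whether both libraries carry the same hairpin. They name no rescue, so loss of CDCA8 and any other effect of a hairpin cannot be told apart. The series also holds small RNA libraries of an EZH2 knockdown, which measure none of these genes.

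CDCA8 stood at 14.2 and 16.5 RPM with shCTRL and at 3.98 and 3.94 RPM with shCDCA8. All 9 luminal prostate markers examined were at 57.2 RPM or more in every library, with sums of 3757 and 3915 RPM with shCTRL and 1932 and 2035 RPM with shCDCA8. KLK3, the gene of prostate-specific antigen, went from 1454 and 1477 RPM to 364 and 438 RPM, whereas the keratin genes KRT8 (198 and 216 against 333 and 357 RPM) and KRT18 (196 and 215 against 286 and 294 RPM) were higher in shCDCA8, and FOLH1 overlapped. The leukocyte and endothelial markers in the table (3 of 5) stayed at or under 0.0375 RPM, and 3 of 4 fibroblast markers stayed under 1 RPM in every library. The remaining one, COL1A1, was at 9.62 and 11.8 RPM with shCTRL and 3.60 and 3.89 RPM with shCDCA8. The basal marker KRT14 lay between 2.03 and 2.53 RPM. The part of these cell markers in the results below was not tested. Gene rows took 41.1% and 43.6% of the RPM total in shCTRL and 33.3% and 34.2% in shCDCA8, and the median log2 fold change of all 11833 kept genes was -0.27. Because of this shift, the counts of calls below are also given after median-ratio scaling, which sets each library by the median, over genes, of its ratio to the 4-library geometric mean and brings that median to 0.01. In bulk RNA, fewer cells that express a gene and less RNA per cell cannot be told apart.

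Initiation runs in steps, and the genes are described in that order. eIF2 carries the initiator tRNA to the small subunit and is recharged with GTP by eIF2B; eIF1, eIF1A and eIF5 govern scanning and start codon choice; the large eIF3 complex holds the assembly together; eIF4F, made of the cap-binding eIF4E, the scaffold eIF4G and the helicase eIF4A, recruits the mRNA and is held back by the eIF4E-binding proteins; eIF5B joins the large subunit. Phosphorylation of eIF2 in the integrated stress response and of the eIF4E-binding proteins by mTORC1 are the classic control points of the pathway.

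The initiation factor genes did not move as a block after CDCA8 knockdown. Among the 44 tested, 13 rose and 10 fell by limma on log2(RPM + 1) (adjusted p under 0.05, Benjamini-Hochberg, over every kept gene), and 21 were not called. They rose in 29.5% and fell in 22.7% of cases, where 18.8% of all kept genes rose and 47.6% fell (66.4% called in either direction). Their median log2 fold change was 0.04, set beside -0.27 for all kept genes, and single genes ranged from -2.02 (EIF4EBP1) to 1.45 (EIF4G2). After median-ratio scaling 27 rose and 5 fell, with a median of 0.35, where 33.2% of all kept genes rose and 33.6% fell (66.8% called). All 13 that rose as deposited also rose after that scaling, and 5 of the 10 that fell still fell. None of the 44 was called in opposite directions. Over all kept genes, 2224 of 2224 rises and 3979 of 5628 falls were kept, with 0 opposite calls. The scaling raises log2 fold changes across the table, so the kept rises say little about these members. In RPM as deposited, the groups did not overlap for 34 of the 44 genes, 20 higher and 14 lower in shCDCA8, against 83.2% of all kept genes (26.5% higher and 56.8% lower). Summed over the 46 genes, their RPM was 4998 and 5226 in shCTRL and 4979 and 4800 in shCDCA8, while their share of the reads in gene rows was 1.22% and 1.20% in shCTRL and 1.49% and 1.40% in shCDCA8. Neither sum was tested.

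**Figure D1:**
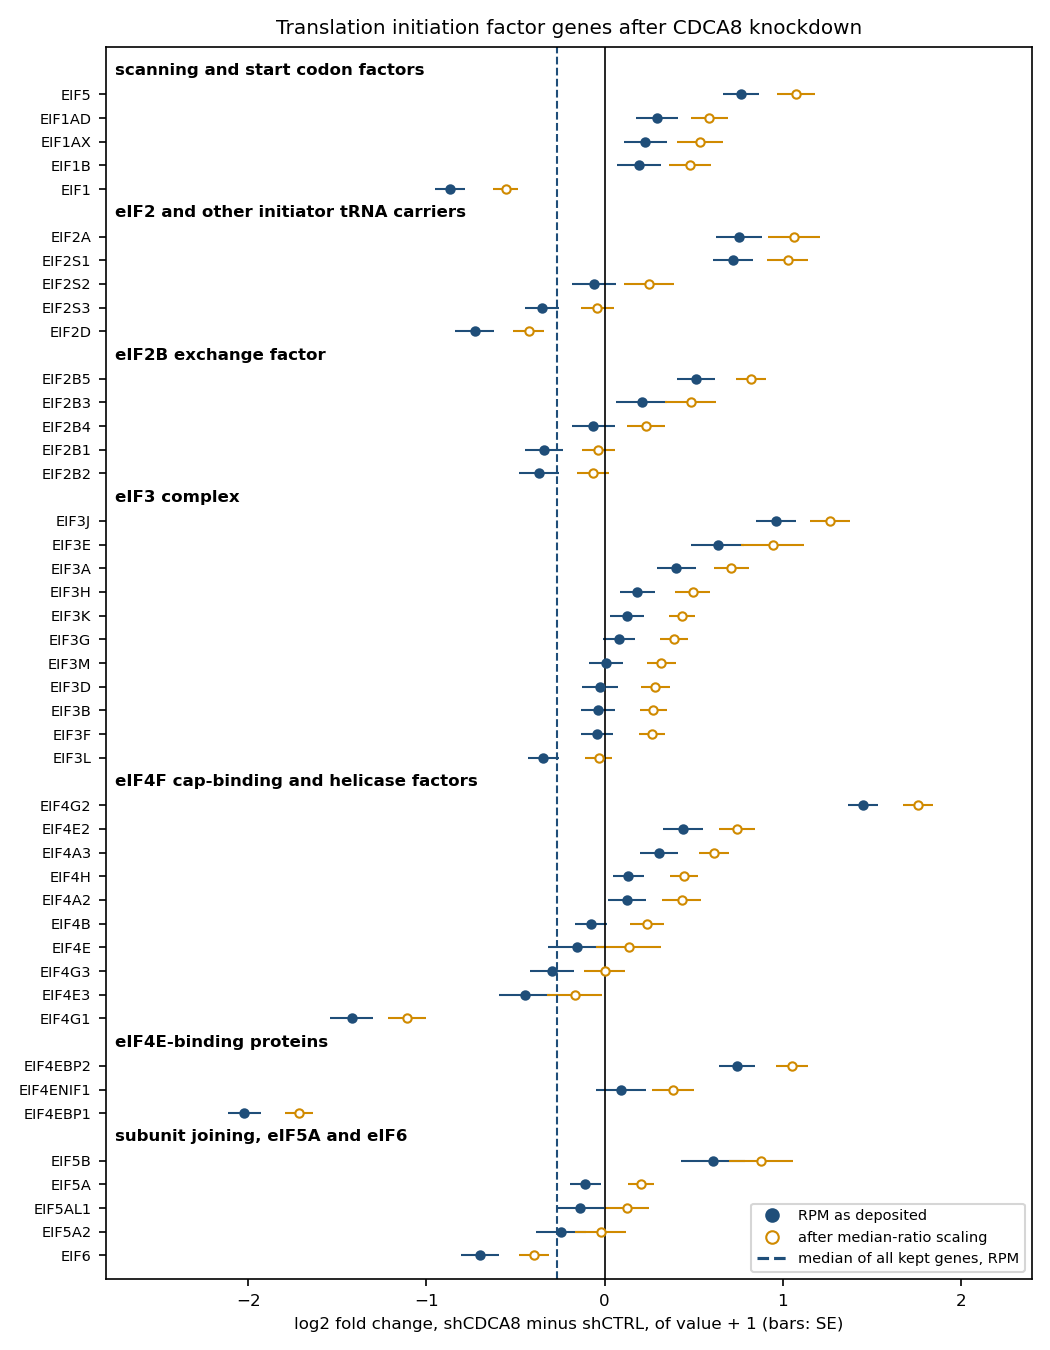
Log2 fold change (shCDCA8 minus shCTRL, of value + 1) of the 44 tested initiation factor genes, grouped by role, with SE as bars; filled points are RPM as deposited, open points follow median-ratio scaling, and the dashed line is the median of all kept genes (-0.27). EIF4EBP1 (-2.02) and EIF4G1 (-1.42) lie at the low end and EIF4G2 (1.45) at the high end under both scalings, while most eIF3 genes sit near 0 as deposited.

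EIF4G1 and its relative EIF4G2 moved in opposite directions. EIF4G1 encodes the main scaffold, which binds eIF4E, eIF4A and eIF3 and so ties the cap to the ribosome. It was measured at 453 and 589 RPM with shCTRL and at 178 and 208 RPM with shCDCA8. Both knockdown libraries lay below both controls, although the controls themselves were 0.38 apart on the log2 scale. It fell, by a log2 difference of -1.42 ± 0.123 (SE, 2 libraries a group, limma adjusted p = 1.6e-06), and of -1.11 after median-ratio scaling. EIF4G2 encodes DAP5, a relative of eIF4G1 that lacks the eIF4E-binding site and serves cap-independent and specialised initiation. Its level was 205 and 206 RPM with shCTRL and 584 and 542 RPM with shCDCA8, without overlap. It rose by 1.45 ± 0.0861 (limma adjusted p = 1.09e-07), or 1.76 after median-ratio scaling. EIF4G3, the third gene of the eIF4G family, had 25.4 and 22.5 RPM with shCTRL and 18.0 and 20.6 RPM with shCDCA8. It was not called (-0.30, limma adjusted p = 0.0515). It passed without shCTRL replicate 2 (-0.38, limma adjusted p = 0.0368) and without shCDCA8 replicate 2 (-0.39, limma adjusted p = 0.0396), and stood at 0.00 after median-ratio scaling. EIF4G1 and EIF4G2 are 2 of the 3 genes that passed a 2-fold change; 3.19% of all kept genes were called and at least 2-fold higher and 14.6% called and at least 2-fold lower. After median-ratio scaling 6 of the 44 were called and at least 2-fold higher and 2 at least 2-fold lower, beside 6.68% and 8.48% of all kept genes.

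A ratio of the reads of 2 genes within a library does not depend on how that library was scaled. The reads of EIF4G2 per read of EIF4G1 were 0.452 and 0.350 in the shCTRL libraries and 3.28 and 2.61 in the shCDCA8 libraries. Both knockdown libraries lay well above both controls, a 7.36-fold change of the ratio. Transcript length enters such a ratio, so its change can be read and its level cannot. With 2 libraries a group an exact two-sided permutation test cannot go below p = 0.333, so no ratio is given a p.

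The tested genes of the cap-binding proteins had log2 fold changes closer to 0 than those of EIF4G1 and EIF4G2. EIF4E, which binds the cap and is the limiting target of the eIF4E-binding proteins, was at 17.0 and 12.2 RPM with shCTRL and 14.1 and 11.7 RPM with shCDCA8. The groups overlapped and the gene was not called (-0.16 ± 0.16, limma adjusted p = 0.407), except without shCTRL replicate 2 (-0.38, limma adjusted p = 0.0475). EIF4E2, whose product (4EHP) binds the cap without binding eIF4G and takes part in repression, rose from 35.5 and 38.3 RPM to 53.6 and 47.3 RPM (0.44 ± 0.111, limma adjusted p = 0.00409). The ratio of EIF4E2 to EIF4E reads was 2.09 and 3.13 in shCTRL and 3.80 and 4.06 in shCDCA8, separate between groups but with controls far apart. EIF4E3, a further cap-binding relative, fell as deposited (-0.45) and was not called after median-ratio scaling (-0.17, limma adjusted p = 0.358), without shCTRL replicate 1 (-0.35, limma adjusted p = 0.0653) or without shCDCA8 replicate 2 (-0.32, limma adjusted p = 0.149). EIF4E1B had at most 1 read in any library.

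Of the helicase genes, EIF4A3, the anchor of the exon junction complex rather than of eIF4F, rose from 48.0 and 53.7 to 63.0 and 63.0 RPM (0.31, limma adjusted p = 0.0217). That call was lost when either shCDCA8 library or shCTRL replicate 1 was left out (between 0.23 and 0.31, limma adjusted p between 0.0640 and 0.177). EIF4A2, the eIF4F helicase gene with a row here, stood at 84.1 and 77.1 RPM with shCTRL and 93.8 and 82.3 RPM with shCDCA8 (0.13, not called). EIF4B and EIF4H, which stimulate the helicase, were not called either, at -0.07 and 0.13. After median-ratio scaling EIF4A2 and EIF4H rose (0.43 and 0.44) and EIF4B was still not called (0.24, limma adjusted p = 0.0562).

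**Figure D2:**
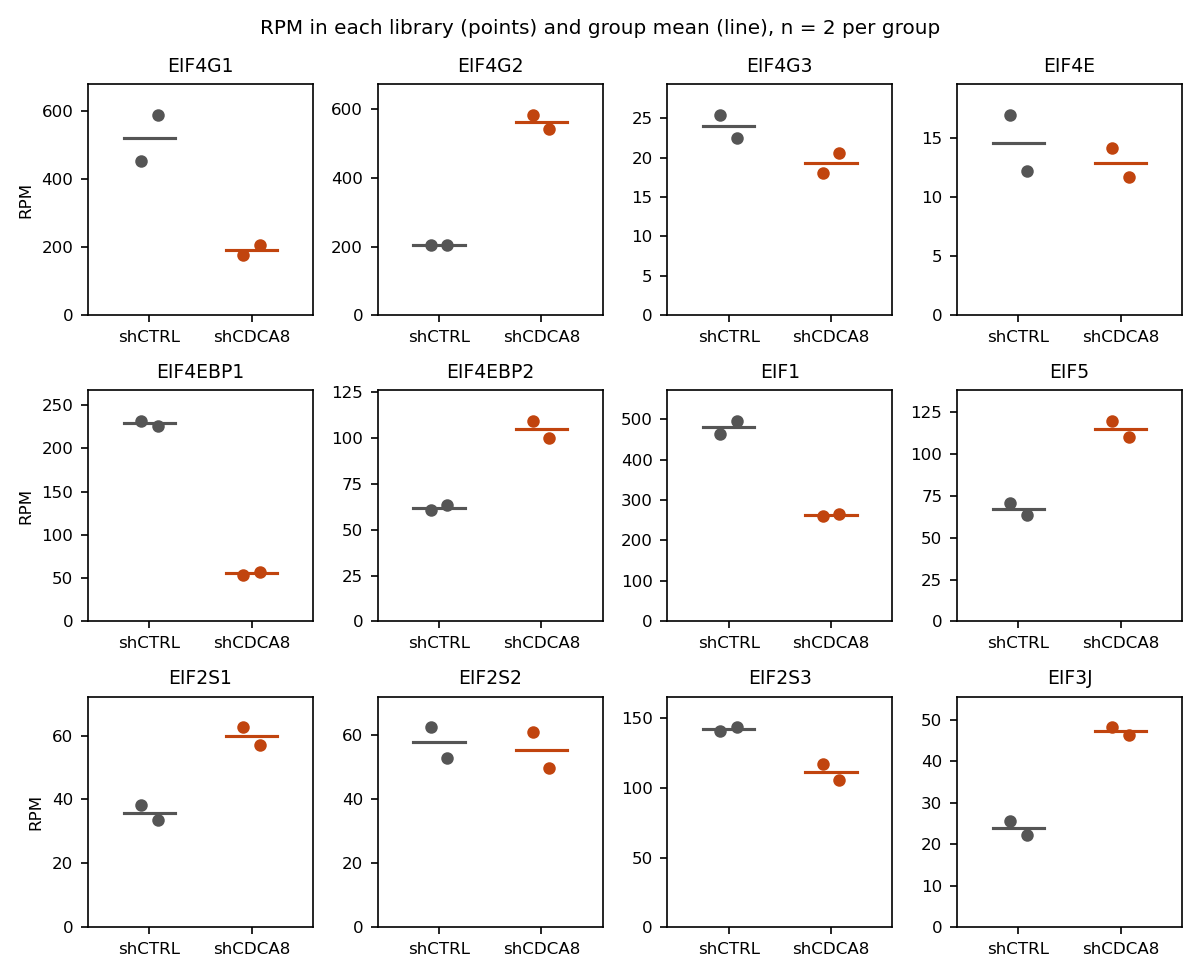
RPM in each library (points) and the group mean (line) for 12 initiation factor genes, shCTRL in grey and shCDCA8 in orange, each panel on its own linear axis from 0. EIF4G1, EIF4EBP1 and EIF1 sit lower in both knockdown libraries, EIF4G2, EIF4EBP2, EIF5, EIF2S1 and EIF3J sit higher, and EIF4E and EIF2S2 overlap.

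The eIF4E-binding proteins showed a second pair of opposite changes. EIF4EBP1, the best known of these repressors, which occupies the eIF4G site of eIF4E until mTORC1 phosphorylates it, had 232 and 226 RPM with shCTRL and 53.9 and 57.3 RPM with shCDCA8. The 2 libraries of each group lay close together and the groups were far apart. With -2.02 ± 0.0939 (limma adjusted p = 1.78e-08) it had the lowest log2 fold change of the 44 genes, and after median-ratio scaling it stood at -1.71. EIF4EBP2, its paralog, rose from 60.4 and 63.5 RPM to 109 and 99.9 RPM (0.75 ± 0.1, limma adjusted p = 4.48e-05). EIF4EBP3 was close to the filter, with 1.14 and 0.921 RPM with shCTRL and 0.938 and 0.669 RPM with shCDCA8 (37 to 61 reads a library), and was not tested. EIF4ENIF1, the eIF4E transporter that carries eIF4E to the nucleus and to processing bodies, was not called (0.09), and rose by 0.38 after median-ratio scaling.

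There were 0.261 and 0.281 reads of EIF4EBP2 per read of EIF4EBP1 in the shCTRL libraries and 2.03 and 1.74 in the shCDCA8 libraries, a 6.95-fold change. The summed RPM of the 4 genes of this group went from 306 and 306 to 178 and 174. Per read of EIF4E, EIF4EBP1 gave 13.7 and 18.5 reads in shCTRL and 3.82 and 4.91 in shCDCA8, whereas EIF4EBP2 gave 3.56 and 5.20 in shCTRL and 7.76 and 8.56 in shCDCA8. EIF4EBP1 is a known target of ATF4, the transcription factor of the integrated stress response. ATF4, looked up after the values of EIF4EBP1 were seen, was at 662 and 677 RPM with shCTRL and 131 and 125 RPM with shCDCA8 (-2.38, limma adjusted p = 3.21e-09), and its part in the result was not tested.

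**Figure D3:**
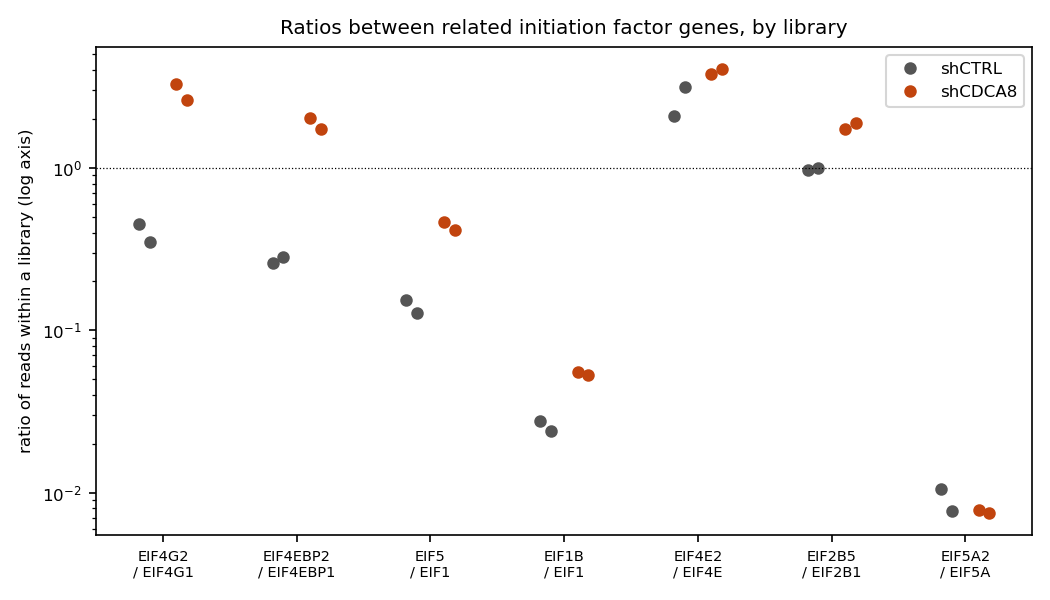
Reads of one gene per read of a related gene within each library, on a log axis, shCTRL in grey and shCDCA8 in orange. EIF4G2 to EIF4G1 and EIF4EBP2 to EIF4EBP1 lie higher in both knockdown libraries than in both controls, by 7.36-fold and 6.95-fold, EIF5 to EIF1 by 3.13-fold, and EIF5A2 to EIF5A overlaps between groups.

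The promoter letters of 3 genes are shown because EIF4G1, EIF4E and EIF4G2 behaved differently in these libraries. A further reason is that the E-box CACGTG, the site that MYC and related factors read, occurs in some of these letters. They are the 250 bases before the most upstream RefSeq start (GRCh38.p14), with each CACGTG in capitals and the rest in lower case: EIF4E from chr4:98929134-98929383 (minus strand), EIF4G1 from chr3:184314356-184314605 (plus strand) and EIF4G2 from chr11:10808927-10809176 (minus strand).
EIF4E: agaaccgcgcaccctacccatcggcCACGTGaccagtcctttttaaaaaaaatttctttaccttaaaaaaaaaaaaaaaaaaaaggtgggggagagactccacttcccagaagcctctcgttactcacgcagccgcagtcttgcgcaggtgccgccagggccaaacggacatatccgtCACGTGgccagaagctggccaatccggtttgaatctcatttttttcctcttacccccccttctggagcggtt
EIF4G1: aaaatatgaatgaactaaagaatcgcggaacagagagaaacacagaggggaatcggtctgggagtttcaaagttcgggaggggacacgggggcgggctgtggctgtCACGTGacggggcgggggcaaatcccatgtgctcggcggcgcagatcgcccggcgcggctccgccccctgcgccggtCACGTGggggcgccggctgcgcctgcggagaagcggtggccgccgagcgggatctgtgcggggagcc
EIF4G2: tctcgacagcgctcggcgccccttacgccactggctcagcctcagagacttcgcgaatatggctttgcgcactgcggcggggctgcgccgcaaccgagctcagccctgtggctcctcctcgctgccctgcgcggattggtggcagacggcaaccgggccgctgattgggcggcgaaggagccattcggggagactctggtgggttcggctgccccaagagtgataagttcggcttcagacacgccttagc
The EIF4E stretch holds 2 matches, beginning 225 and 72 bases before the start, and the EIF4G1 stretch holds 2, at 144 and 67 bases before it. The EIF4G2 stretch holds 0. EIF4G1 has 3 listed starts, EIF4G2 has 2 and EIF4E has 1. No CACGTG was found before the other starts of EIF4G1 and EIF4G2, and which start these cells use was not examined.

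Promoter entries were found for 39 of the 46 genes, with every listed start searched on both strands. CACGTG was present for 11 of 39 (28.2%), against 9.73% of 15843 protein-coding genes and 7.73% of all 27305 genes with an entry. Those sets include genes that are not expressed in these cells, and the share among kept genes was not computed. It was present for 1 of 11 genes that rose (EIF4A3), 1 of 8 that fell (EIF4G1) and 8 of 18 that were not called as deposited, and for EIF4EBP3, which was not tested. That split depends on the scaling. After median-ratio scaling EIF1B, EIF2B3, EIF3F, EIF3K and EIF4H also rose, and the counts were 6 of 23 that rose, 1 of 4 that fell and 3 of 10 that were not called. The ETS core CCGGAAG was present for 7 of 39 (17.9%), against 13.98% of protein-coding genes. A C/EBP-ATF element, searched as TGATGNAA, was present for 1 of 39, EIF4E3, against 3.16% of protein-coding genes. The 7 genes without an entry were not searched, nor were letters outside the 250 bases before a start. Of the 5 genes that fell after median-ratio scaling, EIF4EBP1 among them, 4 had an entry. The count therefore does not say whether EIF4EBP1 has such an element. None of the 3 motifs contains another, and a match is a description of letters, not of binding. MYC, looked up after the matches were seen, was at 153 and 139 RPM with shCTRL and 55.0 and 59.3 RPM with shCDCA8 (-1.34, limma adjusted p = 5.76e-07), and its part in the result was not tested.

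Start codon factors split as well. EIF1, which keeps the scanning ribosome open and discards poor start codons, was at 463 and 496 RPM with shCTRL and 260 and 265 RPM with shCDCA8. Both groups were tight and did not overlap, and it fell by 0.87 on the log2 scale (SE 0.0856, limma adjusted p = 4.37e-06; -0.56 after median-ratio scaling). EIF5, the GTPase-activating protein of eIF2 that acts against eIF1 at the start codon, rose from 71.0 and 63.5 RPM to 120 and 110 RPM (0.77 ± 0.103, limma adjusted p = 4.51e-05). The reads of EIF5 per read of EIF1 went from 0.153 and 0.128 to 0.463 and 0.415, a 3.13-fold change. EIF1B, a close relative of EIF1, had 12.9 and 11.9 RPM with shCTRL and 14.5 and 14.1 RPM with shCDCA8 and was not called (0.19, limma adjusted p = 0.19). EIF1AX, the X-linked eIF1A gene, was not called either (0.23), except without shCTRL replicate 1 (0.39, limma adjusted p = 0.019). Both rose after median-ratio scaling (0.48 and 0.54). EIF1AD, named for its likeness to eIF1A, rose as deposited from 15.1 and 15.6 to 19.5 and 18.6 RPM (0.29, limma adjusted p = 0.0439), and lost its call when any 1 library was left out (limma adjusted p between 0.0919 and 0.212).

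The 3 subunits of eIF2 did not change together. EIF2S1 encodes the alpha subunit, whose phosphorylation turns on the integrated stress response. It rose from 38.3 and 33.5 RPM to 62.8 and 56.9 RPM (0.72 ± 0.112, limma adjusted p = 0.000137). EIF2S2, the beta subunit, overlapped between groups at 62.6 and 52.8 against 60.9 and 49.8 RPM (-0.06). EIF2S3, the gamma subunit that holds the GTP, fell from 141 and 144 RPM to 118 and 106 RPM (-0.35, limma adjusted p = 0.00674) and was not called after median-ratio scaling (-0.04) or without shCDCA8 replicate 2 (-0.27, limma adjusted p = 0.0624).

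Proteins that can deliver initiator tRNA without eIF2 also differed from each other. EIF2A, unrelated to eIF2 in spite of its name, rose from 51.9 and 40.3 RPM to 83.2 and 73.1 RPM (0.76 ± 0.129, limma adjusted p = 0.000276). EIF2D, which also acts in ribosome recycling, fell from 40.6 and 42.6 RPM to 23.8 and 25.6 RPM (-0.73 ± 0.11, limma adjusted p = 0.000107). Neither group pair overlapped, and both genes kept their direction and call after median-ratio scaling (1.06 and -0.43).

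Among the 5 subunits of eIF2B, the exchange factor that reloads eIF2 with GTP, only EIF2B5 rose as deposited. It encodes the catalytic epsilon subunit and went from 34.7 and 37.3 RPM to 50.4 and 53.4 RPM (0.52 ± 0.106, limma adjusted p = 0.00107; 0.82 after median-ratio scaling). EIF2B1 (alpha) and EIF2B2 (beta) fell as deposited, EIF2B2 from 34.1 and 37.2 to 26.4 and 28.5 RPM (-0.37, limma adjusted p = 0.0122) and EIF2B1 by 0.34 on the log2 scale. After median-ratio scaling neither was called (-0.06 for EIF2B2, -0.04 for EIF2B1), and each also lost its call without shCTRL replicate 2 and without 1 shCDCA8 library (replicate 1 for EIF2B2, replicate 2 for EIF2B1), with limma adjusted p between 0.0722 and 0.0877. EIF2B3 and EIF2B4 were not called as deposited (0.21 and -0.06), and EIF2B3 rose after median-ratio scaling (0.48). The reads of EIF2B5 per read of EIF2B1 were 0.973 and 0.997 in shCTRL and 1.73 and 1.89 in shCDCA8. In RefSeq gene order EIF2B5 and EIF4G1 lie on chromosome 3 with 10 protein-coding genes between them, of which 7 were kept. Of those 7, 4 fell and 0 rose as deposited, and 3 fell and 2 rose after median-ratio scaling. Over all kept genes 47.6% fell and 18.8% rose as deposited, and 33.6% fell and 33.2% rose after that scaling. The pairs EIF1AX and EIF2S3, EIF2S2 and EIF6, and EIF3E and EIF3H also lie near each other and are not described here.

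Most genes of the eIF3 complex were not called as deposited. EIF3I has a row but was left out by the choice of genes. Of the 11 analysed, 3 rose (EIF3J, EIF3E and EIF3A), EIF3L fell and 7 were not called. The log2 fold changes of those 7 ran from -0.04 (EIF3F and EIF3B) to 0.18 (EIF3H). Over all kept genes 18.8% rose and 47.6% fell. EIF3J, the loosely attached subunit that helps load and release the complex, rose from 25.6 and 22.2 RPM to 48.3 and 46.4 RPM (0.96 ± 0.114, limma adjusted p = 1.76e-05). EIF3E rose from 81.2 and 65.1 RPM to 133 and 96.9 RPM (0.63 ± 0.147, limma adjusted p = 0.00236), with the 2 knockdown libraries 0.45 apart on the log2 scale and a value of 0.41 without shCDCA8 replicate 1. EIF3A, the largest subunit and part of the scaffold, rose from 60.1 and 54.5 to 70.9 and 81.4 RPM (0.40), and was no longer called without shCDCA8 replicate 2 (0.30, limma adjusted p = 0.0598). EIF3L fell from 256 and 255 to 202 and 199 RPM (-0.34) and was not called after median-ratio scaling (-0.03). Under that scaling 10 of the 11 rose, EIF3L being the exception, where 33.2% of all kept genes rose. The median over the 11 genes was 0.080 as deposited and 0.39 after median-ratio scaling, so the number of calls depended on the scaling and the sign of the median did not. The summed RPM of the 11 genes was 1466 and 1517 in shCTRL and 1546 and 1538 in shCDCA8.

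The choice of genes left out EIF3J-AS1, a row named as antisense to EIF3J. It was at 9.19 and 8.86 RPM with shCTRL and 5.67 and 4.32 RPM with shCDCA8 (-0.75, limma adjusted p = 0.000724), opposite in direction to EIF3J. The sources used here do not give whether counting used strand, so reads of the pair may be mixed.

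The last steps are subunit joining and the factors beside it. EIF6, which keeps the large subunit from joining too early, fell from 60.0 and 67.2 RPM to 38.0 and 39.3 RPM (-0.70 ± 0.107, limma adjusted p = 0.000115; -0.40 after median-ratio scaling). EIF5B, the GTPase that joins the subunits, was at 3.96 and 6.55 RPM with shCTRL and 8.29 and 8.36 RPM with shCDCA8. It rose by 0.61 (limma adjusted p = 0.0105), but its controls were the farthest apart of all 44 genes (0.61 on the log2 scale), and without shCTRL replicate 1 it was at 0.30 and not called (limma adjusted p = 0.114), whereas without shCTRL replicate 2 it was at 0.91. EIF5A, the hypusine-carrying factor that relieves stalled ribosomes, was at 298 and 318 RPM against 285 and 286 RPM and was not called (-0.11), and rose by 0.20 after median-ratio scaling. EIF5A2 (3.13 and 2.46 against 2.24 and 2.15 RPM) and EIF5AL1, whose reads may be shared with the near-identical EIF5A, were not called under either scaling.

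In all, 14 of the 23 called genes kept their direction and call in each of 13 alternative analyses, which were 2 other scalings, edgeR and DESeq2 on recovered reads, each library left out in turn, the replicate block, 2 pseudocounts and 2 filters. They were EIF1, EIF2A, EIF2B5, EIF2D, EIF2S1, EIF3E, EIF3J, EIF4E2, EIF4EBP1, EIF4EBP2, EIF4G1, EIF4G2, EIF5 and EIF6. The same count was not made over all kept genes, so whether 14 of 23 is many or few cannot be said. The 2 other scalings, edgeR and DESeq2 raised the median log2 fold change of the members, which favours rises over small falls. The median gap between the 2 libraries of a group, on the log2 scale, was 0.12 in shCTRL and 0.10 in shCDCA8 over the 44 genes, beside 0.13 and 0.13 over all kept genes.

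Other genes of translation, from lists written by function, gave the surroundings. Of 27 other regulators of initiation, the eIF2 kinases among them, 9 rose and 8 fell, with a median of 0.15 (15 rose and 5 fell after median-ratio scaling, median 0.45). The shares of all kept genes were 18.8% and 47.6% as deposited and 33.2% and 33.6% after that scaling. The lowest p in that list belonged to RPS6KB2, a ribosomal protein S6 kinase gene, which rose from 33.7 and 37.1 to 110 and 116 RPM (1.65), then DDX3X, a helicase that assists scanning (1.34), and PABPC4, a poly(A)-binding protein gene (-0.92). Of 15 genes of elongation, termination and eIF5A hypusination, 2 rose and 8 fell, with a median of -0.27 (4 rose and 5 fell after median-ratio scaling, median 0.03). These are 13.3% and 53.3% as deposited, near the shares of all kept genes. EEF2, the translocase, fell from 4147 and 4346 to 2029 and 2290 RPM (-0.98), EEF1A1, which brings aminoacyl-tRNA to the ribosome, fell by 0.82, and EEF2K, the kinase that inhibits eEF2, fell by 1.29. No difference between these lists was tested.

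**Figure D4:**
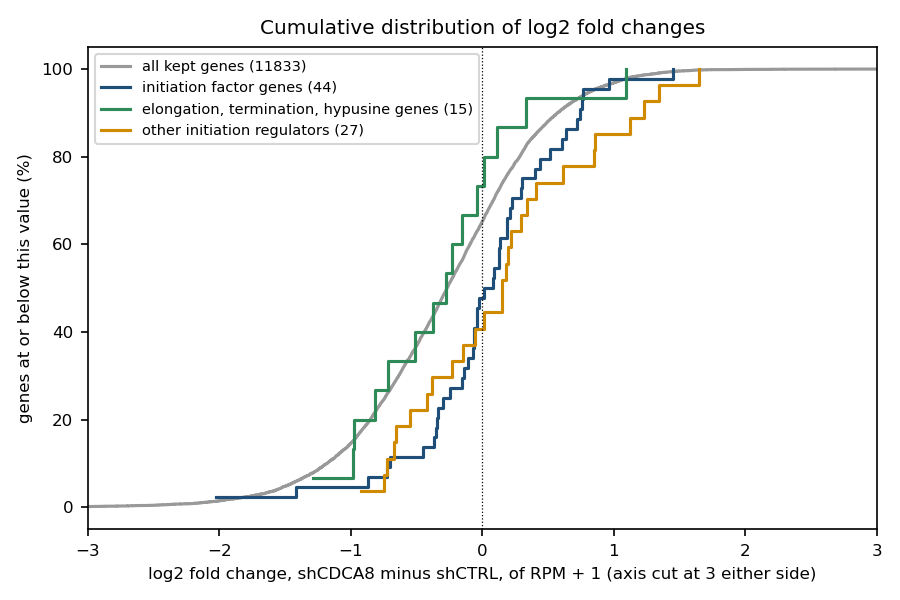
Cumulative share of genes at or below a log2 fold change (shCDCA8 minus shCTRL, of RPM + 1) for all 11833 kept genes (grey), 44 initiation factor genes (blue), 27 other initiation regulators (yellow) and 15 elongation, termination and hypusination genes (green). The blue median is 0.04 and the yellow one 0.15, while the green and grey medians both lie at -0.27.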

How the data were processed

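The authors deposited RPM values for 18892 genes, the unit being taken from the file name. Per the submitters' processing notes, cutadapt, TopHat, HTSeq, edgeR and the build hg19 were used, with no version or role named. The sources used here do not give the annotation, the strand setting or the choice of RPM total. Each value above 0 was a whole multiple of 1 step per library (100% within 0.01 of a whole read), so reads were recovered: 21920570 and 20380764 in the gene rows of shCTRL, 17406425 and 18931009 in shCDCA8. Replicates were distinct libraries, with a chi-square per degree of freedom of 8.08 (shCTRL) and 10.0 (shCDCA8) between them.

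The main test was limma 3.58.1 under R 4.3.3 on log2(RPM + 1) (lmFit, eBayes with trend, two-sided), adjusted by Benjamini-Hochberg over the 11833 genes that reached 1 RPM in 2 or more of 4 libraries. A fold change on this scale understates the change of low genes. Called means an adjusted p under 0.05, and "rose" and "fell" are used of calls. edgeR 4.0.16 (quasi-likelihood, 7807 genes called) and DESeq2 1.42.0 were run on recovered reads as alternatives only. The fit was tested on simulated data in which most genes did not change, unlike the data here, so that test does not vouch for these calls. Values in every library are given for members called with at least a 2-fold change, the 2 smallest p of each role and listed paralogs. They are also given for others where a sentence turns on them. For DDX3X, PABPC4, EEF1A1 and EEF2K, which are not members, only the log2 fold change is given. The members and lists were chosen with earlier results of these data known. Promoter sequences are from RefSeq (GRCh38.p14), matched by symbol. The small RNA table was not used here.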

Additional observations from a re-analysis of the deposited data

How the results depend on the processing

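Scaling changed the counts of calls, and 10 of the 44 genes tested, none of them called as deposited, changed sign with median-ratio scaling. As deposited, 13 members rose and 10 fell (median 0.04). With median-ratio scaling 27 rose and 5 fell (median 0.35), with scaling to the reads in the gene rows 28 and 5 (0.37), with edgeR 28 and 5 (0.35) and with DESeq2 26 and 5 (0.36). Over all genes those settings called 3931, 3957, 3851 and 3639 genes higher, where 2224 were higher as deposited. They called 3979, 3849, 3956 and 3575 genes lower, where 5628 were lower as deposited. The median was 0.080 with a filter of at least 5 RPM and -0.0029 with no filter, which adds 2 low genes. Neither pseudocount changed a count of members. With 1 library left out, 10 to 12 members rose, 8 to 10 fell and the median lay between 0.04 and 0.06. In such fits the lone library of a group is assumed to vary like the others.

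Some log2 fold changes near 0 turned positive. In the order median-ratio scaling, gene-row scaling, edgeR and DESeq2, EIF2B4 stood at 0.23, 0.26, 0.24 and 0.25, EIF2S2 at 0.25, 0.26, 0.25 and 0.25, and EIF3B at 0.27, 0.29, 0.27 and 0.28. EIF3D stood at 0.29, 0.30, 0.28 and 0.29, EIF3F at 0.27, 0.28, 0.26 and 0.27, and EIF4B at 0.24, 0.25, 0.24 and 0.24. EIF4E stood at 0.13, 0.16, 0.12 and 0.13, EIF5A at 0.20, 0.22, 0.20 and 0.21, and EIF5AL1 at 0.12, 0.15, 0.14 and 0.15. EIF4G3 stood at 0.0018 and 0.016 in the first pair and stayed negative in the others. The scaling removes the shift of the whole table.

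With 1 library left out, log2 fold changes ranged from -0.15 to 0.028 for EIF2B4, from -0.20 to 0.082 for EIF2S2, from -0.12 to 0.046 for EIF3B and from -0.14 to 0.089 for EIF3D. They ranged from -0.10 to 0.013 for EIF3F, from -0.17 to 0.020 for EIF4B, from -0.38 to 0.065 for EIF4E and from -0.053 to 0.24 for EIF4ENIF1. These genes were not called as deposited, and the cause was not tested.

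With the replicate number as a block, 15 members rose and 11 fell (all genes 2712 higher and 6189 lower), EIF1AX, EIF3H and EIF4G3 being added. Deviations of same-numbered libraries from their group means correlated across genes (r = 0.31), but with 2 pairs the libraries share only a number. EIF4E1B and EIF4EBP3 had too few reads to pass the filter, and the part of depth in the spread of the other genes was not tested.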
